A study of Bos taurus with 16 samples.

Results

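The pyruvate dehydrogenase complex and the enzymes that switch it on and off were followed in bovine blastocysts from mothers on different oilseed diets. The set held 10 genes: PDHA1, PDHB, DLAT, DLD and PDHX of the complex, the kinases PDK1, PDK2, PDK3 and PDK4, and the phosphatase PDP1. All 10 were found in the platform's table of probes and genes, with 19 of the 43794 probes, out of 15216 named genes in all. No probe was filtered out. The set was proposed with results of these arrays known: PDHX was selected on its own measured ratios, because 1 of its probes was positive in both diets and the other was not. The PDHX ratios against CAN are therefore given as a description without a test, and counts of tests cover the 17 probes of the other 9 genes.

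The complex sits in the mitochondrial matrix and turns pyruvate into acetyl-CoA, the step that joins glycolysis to the tricarboxylic acid cycle. A thiamine-dependent pyruvate dehydrogenase, a lipoyl-bearing acetyltransferase and a flavin-dependent dihydrolipoamide dehydrogenase pass the carbon and the electrons along. Kinases shut the complex by phosphorylating its first enzyme, and phosphatases open it again. Starvation and fatty acids are known to raise kinase transcripts, PDK4 above all, in muscle and liver. In cattle the blastocyst stage is known for a rising use of glucose.

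Embryos were flushed from Holstein cows 7.5 days after insemination with semen of a single sire. The cows were not lactating and ate a diet with rolled oilseeds, to which they were adapted for 35 days or more before hormonal superstimulation. The FLX diet held flax seed, a source of α-linolenic acid, and was fed to 8 cows. The SUN diet held sunflower seed, a source of linoleic acid, for 7 cows, and the CAN diet, the control, held canola seed, a source of oleic acid, for 8 cows. For FLX and for SUN, 4 replicate pools of blastocysts were each hybridised against a CAN pool on a 2-colour array and again with the dyes Cy3 and Cy5 exchanged, giving 16 arrays. There was thus no group without an oilseed supplement. Pools combined same-stage embryos of a mother. The mothers behind each replicate are not given in the sources used here.

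Each value below is a log2 ratio of diet over CAN, averaged over an array and its dye exchange, so that a replicate counts once. Base 2 and the direction Cy5 over Cy3 are the likely reading of the deposited ratios, and with the opposite direction every sign turns. Array medians ran from −0.0139 to 0.00947, and a probe's mean against CAN had a standard error of 0.0735 in the median. The number of arrays limits the precision. Ratios hold no levels, so the embryonic identity of the samples could not be checked by marker level, and levels of different members could not be compared. Trophectoderm markers had a median gene mean of −0.079 in FLX (3 of 11 positive, replicate medians −0.44 to 0.15) and 0.15 in SUN (8 of 11 positive, replicate medians −0.30 to 0.73). Inner cell mass markers had 0.021 in FLX (4 of 7 positive, replicate medians −0.12 to 0.13) and 0.0058 in SUN (5 of 7 positive, replicate medians −0.13 to 0.18). These medians hide NANOG, which ran from −2.19 to 2.63 in FLX and from −0.30 to 5.34 in SUN. Cumulus and granulosa cell markers had −0.046 in FLX and 0.071 in SUN, while the medians of the hypoblast, blood and uterine lists lay between −0.044 and 0.047. The uterine medians hide LTF, at −2.21 in FLX replicate 3 and −2.68 in SUN replicate 3, and between −0.26 and 0.25 elsewhere. MUC1, of the same list, read −0.80 and −1.01 in replicate 3. The hypoblast marker HNF4A reached 0.84 in FLX replicate 2 and 1.17 in SUN replicate 2. The part of these cell types in the results was not tested. In whole embryos, fewer cells of a type and less RNA per cell cannot be told apart.

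No member passed the test. At a false discovery rate of 0.05 limma called 0 of 43794 probes (0%) and 0 of 15216 genes (0%) in FLX against CAN, in SUN against CAN and in FLX against SUN. At an unadjusted p under 0.05 the same model held 0 of the 17 member probes in FLX, where 2.91% of all probes (and 3.15% of all genes) were that low. In SUN it held 1 of 17 (5.88%), which was PDK2, against 6.46% of all probes and 6.18% of all genes. In FLX against SUN it held 1 of 17 (5.88%), which was PDP1, against 2.17% of all probes and 2.09% of all genes. With the replicate number as a block, limma held 2 of 17 in FLX against SUN, PDP1 and PDHA1 probe EMBV3_08732, against 5.31% of all probes, and 2 of 17 in SUN, PDK2 and the same PDHA1 probe, against 6.31% of all probes. The share in SUN without the block was near that of the whole array. The adjusted p of the member probes was 1.00 in FLX and 0.774 to 0.993 in SUN.

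The signs of the members leaned to positive in both diets without passing a threshold. Of the 17 probes, 12 were positive and 5 negative in FLX, with a median of 0.062, and 12 were positive and 5 negative in SUN, with a median of 0.056. The median over all genes was 0.0011 in FLX and 0.0025 in SUN. Of the 9 gene means, 6 were positive in FLX and 7 in SUN, against 50.8% and 51.0% of all genes. The positive share over all probes was not computed, and probes of one gene are not independent. Both diets were set against CAN samples carrying the same numbers, so their signs are not independent. Of these 17 probes, 4 kept 1 sign in all 4 replicates in FLX (23.5%, against 10.3% of all probes), and 2 did so in SUN (11.8%, against 13.7%).

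**Figure D1:**
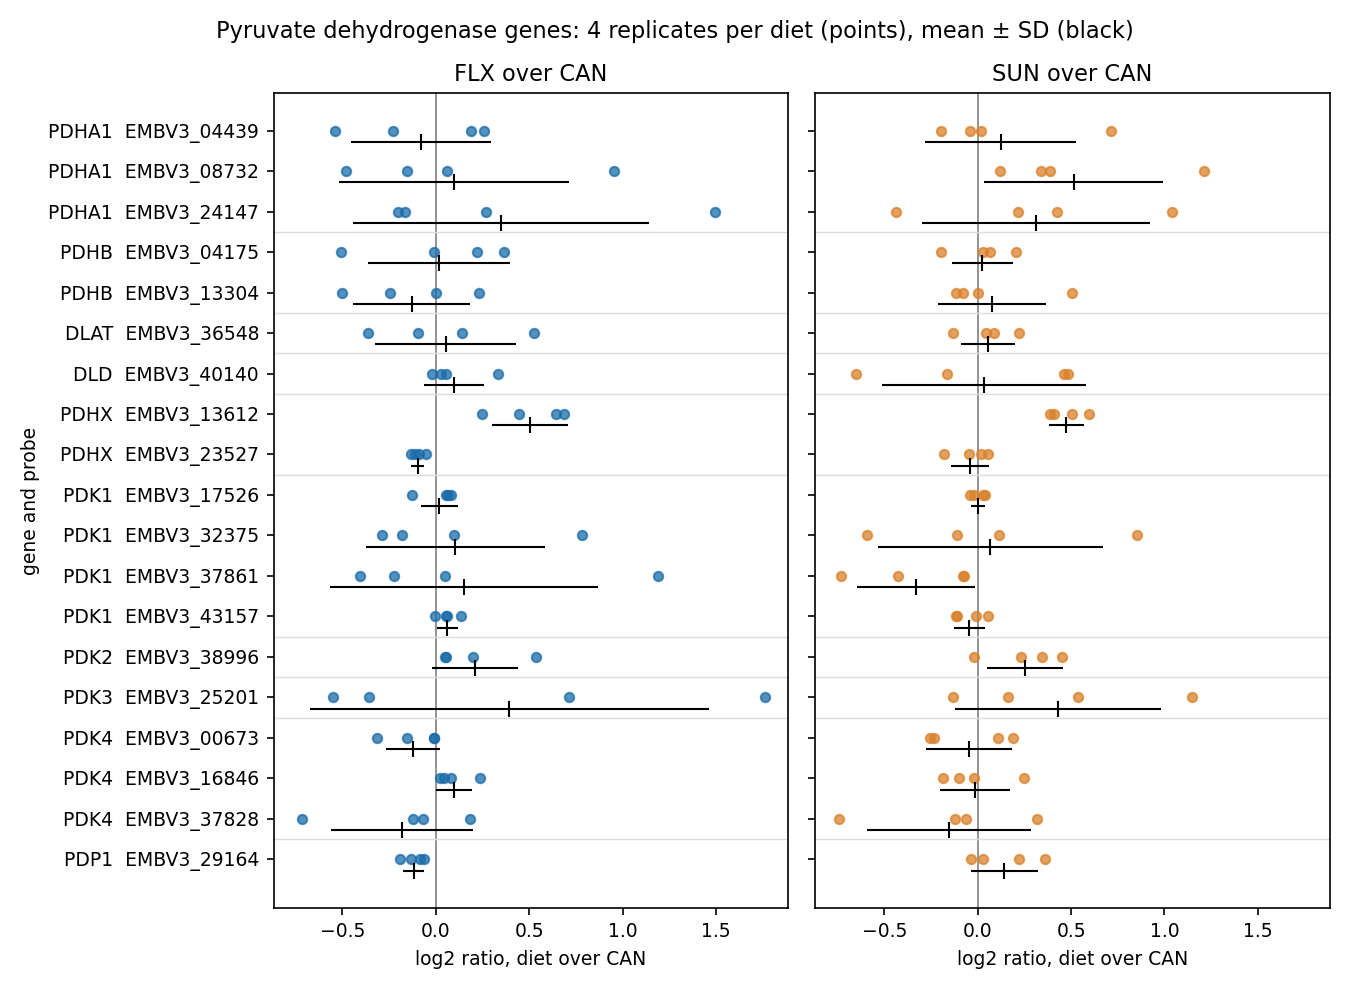
Log2 ratio of diet over CAN (x axis) for each of the 19 probes (rows), with FLX on the left and SUN on the right. Points are the 4 replicates and black marks the mean ± SD. PDHX probe EMBV3_13612 lies above 0 in all replicates of both diets, while PDK3 spreads from −0.55 to 1.76 in FLX.

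PDHX, the E3-binding protein that anchors dihydrolipoamide dehydrogenase to the core, gave unlike values at its pair of probes, the trait for which it was selected. Probe EMBV3_13612 stood at 0.44, 0.25, 0.64 and 0.69 in FLX replicates 1 to 4, with a mean of 0.50 ± 0.20 (SD, n = 4), or 1.42-fold. In SUN it stood at 0.41, 0.39, 0.50 and 0.60, with a mean of 0.48 ± 0.10 (SD, n = 4), or 1.39-fold. All 8 values were thus positive, and the ranges of the diets overlapped.

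Probe EMBV3_23527 of the same gene stood at −0.11, −0.05, −0.09 and −0.13 in FLX, a mean of −0.10 ± 0.03 (SD, n = 4). In SUN it stood at −0.18, 0.05, −0.05 and 0.02, a mean of −0.04 ± 0.10 (SD, n = 4). It was slightly negative in every FLX replicate and of mixed sign in SUN. The first probe exceeded it by 0.60 ± 0.23 in FLX and by 0.51 ± 0.12 in SUN (SD, n = 4 each), in every replicate. The probes did not move together either, with a Pearson r of −0.15 over the 8 replicates, whose CAN samples carry shared numbers. Where in the gene each probe lies was not analysed here.

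The gene mean of PDHX, which averages these unlike probes, was 0.20 ± 0.09 in FLX and 0.22 ± 0.08 in SUN (SD, n = 4 each). It describes neither probe. Its SD over the 8 replicates was 0.0779, and 10.3% of genes had a smaller one. That rank is of an average of probes that did not move together, in a gene picked on these values, so it does not show a steady gene. Probe EMBV3_13612 alone had an SD of 0.20 in FLX, above the 0.132 of the median probe, and 0.10 in SUN, below the 0.154 of the median probe.

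The ratio of EMBV3_13612 also depended on the dye. With FLX in Cy5 its arrays read 0.54, 0.40, 0.95 and 0.93, and with FLX in Cy3 they read 0.34, 0.093, 0.33 and 0.45. With SUN in Cy5 they read 0.81, 0.78, 0.57 and 0.83, and with SUN in Cy3 0.0084, −0.0022, 0.43 and 0.37. The probe was thus positive on 8 of 8 FLX arrays and 7 of 8 SUN arrays, but the size was larger in Cy5 in each diet. The mean difference between orientations was 0.40 in FLX and 0.55 in SUN, and 9.42% of all probes in FLX and 4.97% in SUN had a difference at least as large. For SUN replicates 1 and 2 the Cy3 arrays alone showed a ratio near 0. Probe EMBV3_23527 had mean orientation differences of 0.014 in FLX and 0.059 in SUN, in which opposite signs cancelled. Its mean absolute difference was 0.12 in FLX, below the 0.194 of the median probe, and 0.29 in SUN, above the 0.252 of the median probe.

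**Figure D2:**
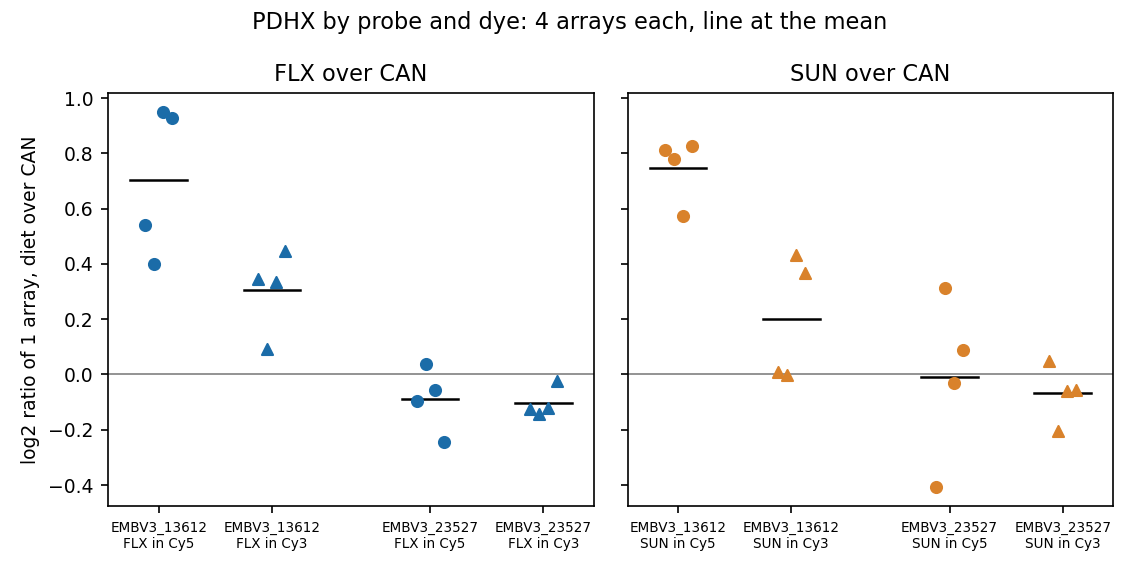
Log2 ratio of diet over CAN on single arrays (y axis) for the 2 PDHX probes, by diet and by the dye that carried the diet sample. Circles are the 4 arrays with the diet in Cy5, triangles the 4 with it in Cy3, and lines are means. EMBV3_13612 averages 0.70 in Cy5 and 0.31 in Cy3 for FLX, and 0.75 and 0.20 for SUN.

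Among the catalytic subunits, the X-linked PDHA1, which encodes the α subunit of the first enzyme and carries the sites the kinases phosphorylate, varied most over the 8 replicates, although DLD varied more within SUN. Its gene mean over 3 probes stood at −0.07, 0.90, −0.30 and −0.04 in FLX, a mean of 0.12 ± 0.53 (SD, n = 4) with an unadjusted limma p of 0.590. In SUN it stood at 0.24, 0.99, −0.10 and 0.14, a mean of 0.32 ± 0.47 (SD, n = 4) with an unadjusted limma p of 0.182. Replicate 2 was far above the others in each diet. Without it the mean was −0.14 in FLX and 0.092 in SUN.

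The 3 PDHA1 probes moved together over the 8 replicates, with Pearson r between 0.50 and 0.86 for their pairs. Probe EMBV3_08732 was positive in all 4 SUN replicates, at 0.34, 1.21, 0.12 and 0.39, and had 0.06, 0.96, −0.48 and −0.16 in FLX. FLX was lower than SUN at this probe in all 4 pairs of one number, by a mean of −0.42 ± 0.18 (SD, n = 4). The limma test of that difference gave an unadjusted p of 0.245 without pairing and an unadjusted p of 0.0030 with the replicate number as a block. The other PDHA1 probes did not share this: FLX minus SUN was −0.20 ± 0.41 at EMBV3_04439, with 1 pair positive, and 0.04 ± 0.38 at EMBV3_24147, with 2 pairs positive (SD, n = 4 each). EMBV3_08732 also depended on the dye: its ratio was lower with the diet in Cy5 by 0.70 in FLX and 0.72 in SUN, and 1.75% of all probes in FLX and 1.59% in SUN had as large a difference.

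PDHB, the β subunit that completes the first enzyme, stood at 0.06, −0.50, 0.22 and −0.01 in FLX (mean −0.06 ± 0.31) and at −0.01, −0.10, 0.35 and −0.05 in SUN (mean 0.05 ± 0.21, SD, n = 4 each). Both diets lay on either side of 0, and the 95% confidence interval ran from −0.33 to 0.22 in FLX and from −0.22 to 0.32 in SUN. In FLX replicate 2, where PDHA1 was highest among the FLX replicates, PDHB was lowest.

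DLAT, the acetyltransferase core that carries lipoyl groups, had −0.09, −0.36, 0.14 and 0.53 in FLX (mean 0.05 ± 0.38) and −0.13, 0.09, 0.05 and 0.22 in SUN (mean 0.06 ± 0.15, SD, n = 4 each). The values overlapped between the diets and spanned 0 in each. In SUN its mean was 0.31 with the diet in Cy5 and −0.20 with it in Cy3, so the sign turned with the dye.

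DLD, the dihydrolipoamide dehydrogenase that this complex shares with other 2-oxoacid dehydrogenases, had 0.03, −0.02, 0.33 and 0.05 in FLX (mean 0.10 ± 0.16) and −0.65, 0.48, −0.16 and 0.46 in SUN (mean 0.03 ± 0.55, SD, n = 4 each). SUN replicates split into a positive and a negative pair. The sign of the mean turned with the dye in both diets and in opposite directions: it was 0.28 with FLX in Cy5 and −0.09 with FLX in Cy3, and −0.16 with SUN in Cy5 and 0.23 with SUN in Cy3.

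Of the kinases, PDK2, the widely expressed isoform, had the smallest p of the 17 probes against CAN in each diet. It stood at 0.20, 0.54, 0.05 and 0.05 in FLX, all positive, with a mean of 0.21 ± 0.23 (SD, n = 4), an unadjusted limma p of 0.0664 and an adjusted p of 1.00. In SUN it stood at 0.45, 0.35, 0.23 and −0.02, with a mean of 0.25 ± 0.20 (SD, n = 4), an unadjusted limma p of 0.0337 and an adjusted p of 0.774. The ratio was positive in 7 of these 8 values and the diets overlapped. PDK2 had a single probe. It averaged 0.13 with FLX in Cy5 and 0.29 with FLX in Cy3, with unadjusted limma p-values of 0.234 and 0.0400. It averaged 0.23 with SUN in Cy5 and 0.27 with SUN in Cy3, with a mean absolute difference between the arrays of a replicate of 0.20. Over the alternatives run on the PDK2 gene mean, the unadjusted limma p ran from 0.0117 to 0.141 in SUN and from 0.0313 to 0.309 in FLX.

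PDK3, an X-linked kinase that phosphorylates PDHA1, had the widest spread of all 10 genes. It stood at 0.72, 1.76, −0.55 and −0.36 in FLX, with a mean of 0.39 ± 1.07 (SD, n = 4), and at 0.54, 1.15, −0.13 and 0.16 in SUN, with a mean of 0.43 ± 0.55 (SD, n = 4). Replicates 1 and 2 were high in each diet, and the others were low or near 0. Neither mean exceeded this spread, with unadjusted limma p-values of 0.311 in FLX and 0.270 in SUN, and without replicate 2 the mean was −0.06 in FLX and 0.19 in SUN. The SD over the 8 replicates was 0.788, larger than that of 99.1% of genes, and that of PDHA1, 0.477, was larger than that of 94.0%.

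XIST, the RNA that coats the inactive X chromosome of female cells, was looked up after these values were seen. It stood at 0.99, 2.69, −0.91 and −1.89 in FLX and at 0.93, 2.15, −0.19 and −0.56 in SUN. It was thus high in replicates 1 and 2 of both diets, like PDK3, and negative in the others. The 4 Y-linked genes looked up with it did not share a pattern. DDX3Y had −0.14, −0.63, −0.07 and 0.02 in FLX and −0.08, −0.36, −0.02 and −0.25 in SUN, lowest in replicate 2 of each diet. EIF1AY had 0.22, −0.16, 0.36 and 0.0042 in FLX and 0.08, −0.20, −0.13 and 0.26 in SUN, also lowest there. ZFY, by contrast, was highest in FLX replicate 1, at 0.52, 0.09, −0.06 and −0.04 in FLX and 0.06, 0.03, 0.26 and −0.10 in SUN. SRY had −0.03, −0.08, −0.0020 and −0.01 in FLX and −0.15, 0.11, 0.05 and 0.45 in SUN. The median over 10 Y-linked genes was 0.077, −0.059, −0.0019 and 0.0044 in FLX and 0.024, −0.031, −0.047 and −0.059 in SUN. Signal over background is unknown for these probes, so no reading on embryo sex is drawn from the Y-linked values. The median over 568 X-linked genes was 0.032, 0.055, −0.026 and −0.045 in FLX and 0.039, 0.054, −0.0084 and −0.030 in SUN, while that over 14440 autosomal genes was −0.0053 to 0.0036 in FLX and −0.0050 to 0.0037 in SUN. XIST was not alone in this pattern. TKDP1, a trophectoderm marker, was also highest in replicates 1 and 2 of each diet, at 2.59 in SUN replicate 2. NANOG was highest in replicate 2, at 2.63 in FLX and 5.34 in SUN. Other markers were lowest there: TFAP2C at −0.59 in FLX and −0.44 in SUN, and POU5F1 at −0.35 and −0.32. The trophectoderm median of replicate 2 was −0.15 in FLX and 0.73 in SUN. The part of embryo sex, or of other differences between pools, in the PDK3 and PDHA1 values was not tested. The replicates of one number in both diets were set against CAN samples with the same number, so a shift in the CAN pool and a shift in both diet pools cannot be told apart.

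**Figure D3:**
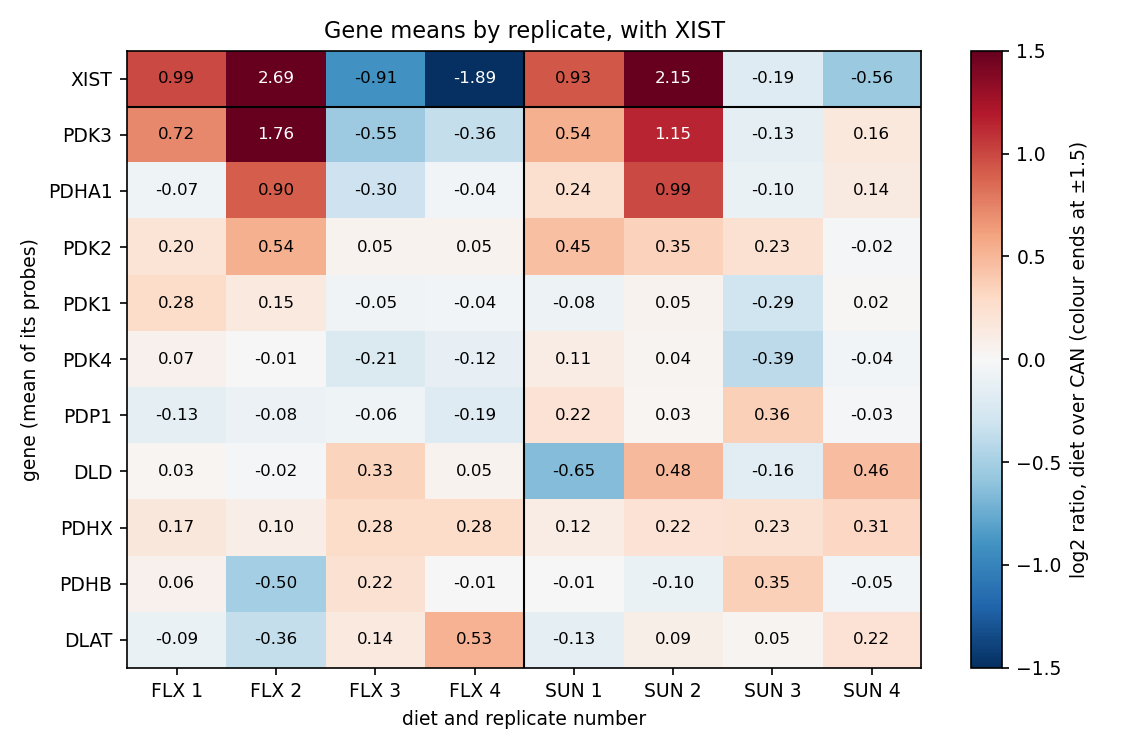
Log2 ratio of diet over CAN (colour and printed value) for XIST and the gene mean of each member (rows) in the 4 FLX and the 4 SUN replicates (columns). PDK3 reaches 1.76 in FLX replicate 2 and 1.15 in SUN replicate 2, where XIST reads 2.69 and 2.15.

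PDK1, a kinase induced by hypoxia in human cells, had 4 probes. Its gene mean stood at 0.28, 0.15, −0.05 and −0.04 in FLX (mean 0.08 ± 0.16) and at −0.08, 0.05, −0.29 and 0.02 in SUN (mean −0.08 ± 0.16, SD, n = 4 each). The diets differed by 0.16 with a 95% confidence interval from −0.09 to 0.41, which holds 0. Probe EMBV3_37861 was the most variable of the 4 in FLX, though not in SUN, at 1.19, −0.23, 0.05 and −0.41 in FLX and −0.08, −0.73, −0.43 and −0.07 in SUN. It was negative in every SUN replicate, with a mean of −0.33 ± 0.32 (SD, n = 4) and an unadjusted limma p of 0.204. The pairs of PDK1 probes had Pearson r from −0.43 to 0.48 over the 8 replicates, so they did not read alike.

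PDK4, the isoform known to respond to fatty acids, showed no shift that exceeded its spread. Its gene mean over 3 probes stood at 0.07, −0.01, −0.21 and −0.12 in FLX (mean −0.07 ± 0.12) and at 0.11, 0.04, −0.39 and −0.04 in SUN (mean −0.07 ± 0.22, SD, n = 4 each). The 95% confidence interval ran from −0.26 to 0.12 in each diet, and the unadjusted limma p was 0.433 in FLX and 0.416 in SUN. Its probes went different ways: EMBV3_16846 was positive in all 4 FLX replicates (mean 0.10 ± 0.10), EMBV3_00673 was negative in all 4 (mean −0.12 ± 0.15), and EMBV3_37828 had a mean of −0.18 ± 0.38 (SD, n = 4 each).

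PDP1, the calcium-stimulated phosphatase that reactivates the complex, was the member in which the diets were furthest apart relative to their spread in the unpaired fit. It stood at −0.13, −0.08, −0.06 and −0.19 in FLX, a mean of −0.12 ± 0.06 (SD, n = 4), and was negative on 8 of 8 arrays. In SUN it stood at 0.22, 0.03, 0.36 and −0.03, a mean of 0.14 ± 0.18 (SD, n = 4). Every FLX value was below every SUN value, though the closest were −0.06 and −0.03. The share of all probes without such overlap was not computed, and PDP1 was singled out by this difference, so the lack of overlap is a description only. FLX minus SUN was −0.36, −0.11, −0.42 and −0.16 for replicates of one number, a mean of −0.26 ± 0.15 (SD, n = 4), with an unadjusted limma p of 0.0252 and an adjusted p of 1.00. Over the alternatives run on the gene mean, the unadjusted limma p of that difference ran from 0.0102 to 0.142. Against CAN, PDP1 had an unadjusted limma p of 0.118 in FLX and 0.0672 in SUN. PDPR, the regulatory subunit of this phosphatase, had −0.01 ± 0.10 in FLX and −0.0011 ± 0.09 in SUN (SD, n = 4 each), and PDP2 was not analysed here.

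The pathways on either side of the complex were read from lists chosen with earlier results known. In the tricarboxylic acid cycle 10 of 14 measured genes were positive in FLX (median 0.044) and 11 of 14 in SUN (median 0.079), against 50.8% and 51.0% of all genes. At an unadjusted p under 0.05, FLX had 2 positive members and 1 negative member, where 3.15% of all genes were that low, and SUN had 1 positive member, where 6.18% of all genes were. IDH3B, a subunit of the NAD-dependent isocitrate dehydrogenase, was positive in all 8 values, at 0.23 ± 0.17 in FLX and 0.16 ± 0.11 in SUN (SD, n = 4 each). SDHA, the flavoprotein of succinate dehydrogenase, was negative in all 4 FLX replicates, at −0.13 ± 0.05 (SD, n = 4). MDH2, mitochondrial malate dehydrogenase, the other positive member in FLX and named after its value was seen, stood at 0.19. SDHC, a membrane anchor of succinate dehydrogenase, had 0.24 ± 0.37 in FLX and 0.24 ± 0.15 in SUN (SD, n = 4 each). None passed the adjusted threshold in limma, where every FLX gene had an adjusted p of 1.00.

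Among the other 2-oxoacid dehydrogenases, which share DLD or the lipoyl chemistry, 5 of 11 genes were positive in FLX and 4 of 11 in SUN. Over all genes 50.8% were positive in FLX and 51.0% in SUN. In each diet 1 of the 11 was under an unadjusted p of 0.05, where 3.15% of all genes were in FLX and 6.18% in SUN. BCKDHA, the α subunit of the branched-chain keto acid dehydrogenase and a relative of PDHA1, had the smallest p of this list in both diets. It stood at −0.64, −0.62, −0.27 and −0.27 in FLX (mean −0.45 ± 0.21) and at −0.63, −0.72, −0.62 and −0.13 in SUN (mean −0.53 ± 0.27, SD, n = 4 each). All 8 values were negative, at a single probe, with unadjusted limma p-values of 0.0029 in FLX and 0.0011 in SUN and adjusted p-values of 1.00 and 0.799. BCKDK, the kinase of that complex, stood at −0.14 ± 0.42 in FLX and −0.36 ± 0.44 in SUN, and OGDH, of the 2-oxoglutarate dehydrogenase, at −0.20 ± 0.27 in FLX and 0.06 ± 0.34 in SUN (SD, n = 4 each).

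Lipoyl groups are made by LIAS, the lipoyl synthase, on which DLAT depends. LIAS had 0.28, 0.50, 0.40 and 0.11 in FLX (mean 0.32 ± 0.17) and 0.03, 0.14, −0.28 and −0.06 in SUN (mean −0.04 ± 0.18, SD, n = 4 each). It was positive in every FLX replicate and of mixed sign in SUN, with an unadjusted limma p of 0.0042 and an adjusted p of 1.00 in FLX. It was the 1 of 7 measured genes for lipoylation and thiamine supply under an unadjusted p of 0.05 in FLX, where 3.15% of all genes were. None of the 7 was in SUN, where 6.18% of all genes were. LIPT1, a lipoyltransferase, stood at 0.14 in FLX, and LIPT2, which acts in lipoyl transfer, at −0.29 in SUN. SLC19A3, a thiamine transporter, stood at 0.32 in SUN, where its probes disagreed: EMBV3_00658 had 0.45, EMBV3_04931 had 0.54 and EMBV3_32745 had −0.05.

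Pyruvate supply held no gene under an unadjusted p of 0.05 in either diet, where 3.15% of all genes were in FLX and 6.18% in SUN. In this list 6 of 10 genes were positive in FLX and 7 of 10 in SUN, against 50.8% and 51.0% of all genes. LDHA, lactate dehydrogenase A, varied most: its SUN mean of 0.69 ± 1.05 (SD, n = 4) rested on replicate 2 at 2.22, the replicate where PDK3 and XIST were also highest. MPC1, a subunit of the mitochondrial pyruvate carrier, stood at −0.20 ± 0.39 in FLX and 0.18 ± 0.51 in SUN (SD, n = 4 each). GPT2, the mitochondrial alanine transaminase, stood at −0.10 in FLX, and PKLR, a pyruvate kinase, at −0.09 in SUN.

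PC, pyruvate carboxylase, which competes with the complex for pyruvate, was the 1 of 6 genes of other pyruvate routes under an unadjusted p of 0.05 in FLX, where 3.15% of all genes were. It had −0.21, −0.33, −0.42 and −0.05 in FLX (mean −0.25 ± 0.16) and −0.40, 0.26, −0.31 and −0.06 in SUN (mean −0.13 ± 0.30, SD, n = 4 each). All FLX values were negative, with an unadjusted limma p of 0.0468 and an adjusted p of 1.00. ME2, a malic enzyme, stood at 0.24 in SUN, and PCK1, a phosphoenolpyruvate carboxykinase, at 0.08 in each diet.

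Among 5 genes that export or make acetyl-CoA elsewhere, ACLY, the ATP citrate lyase, was positive in all FLX replicates at 0.23 ± 0.20 (SD, n = 4), with an unadjusted limma p of 0.0503 and an adjusted p of 1.00. CRAT, the carnitine acetyltransferase, stood at −0.22 in FLX and −0.17 in SUN, where its probes disagreed: EMBV3_42176 had −0.50 in FLX and −0.32 in SUN, and EMBV3_02545 had 0.06 in FLX and −0.01 in SUN. ACSS2, an acetyl-CoA synthetase, had 0.14 in SUN. Of 9 factors known to control kinase transcription, 0 were under an unadjusted p of 0.05 in limma in either diet, and 0 passed the adjusted threshold. Over all genes, 3.15% were under that unadjusted p in FLX and 6.18% in SUN. RXRA, a nuclear receptor, stood at 0.11 in FLX and 0.09 in SUN, ESRRA, an orphan nuclear receptor, at −0.11 in FLX, and FOXO1, a forkhead factor, at −0.11 in SUN.

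**Figure D4:**
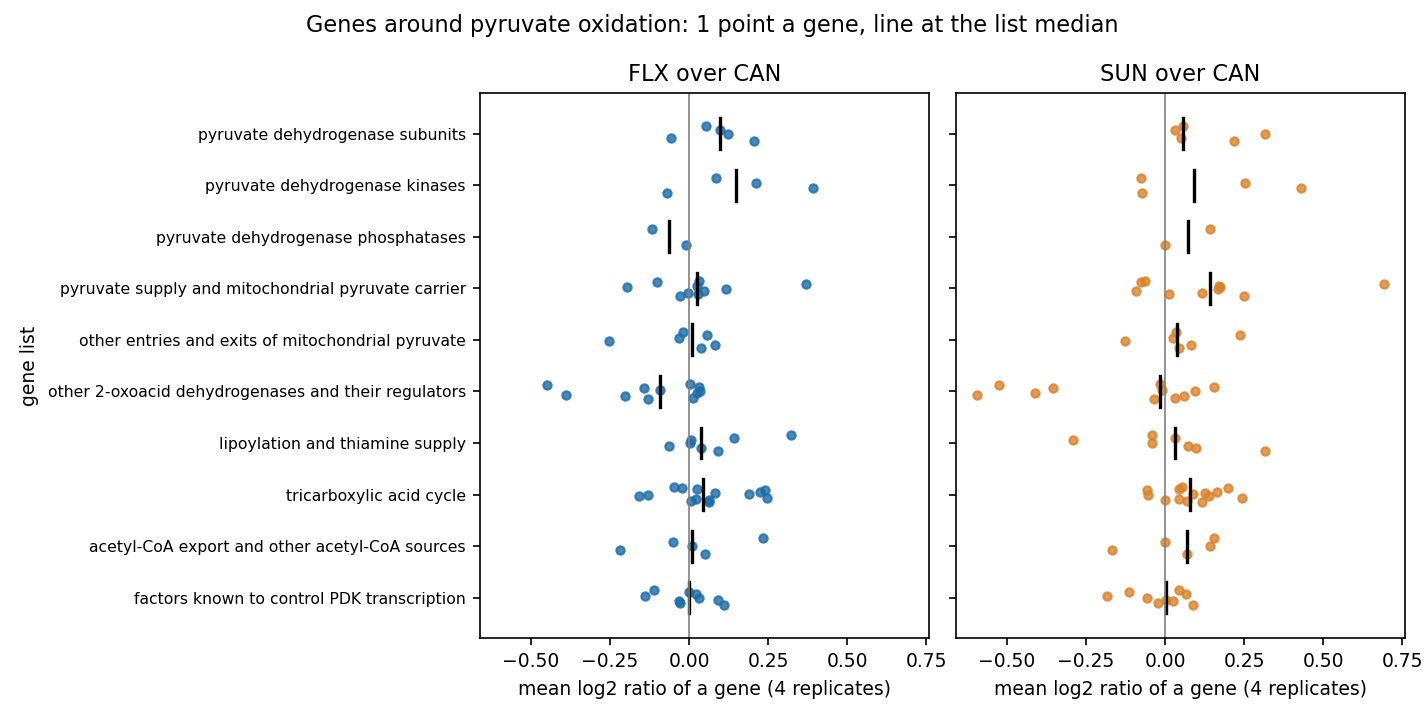
Mean log2 ratio of diet over CAN over 4 replicates (x axis) for each measured gene (points) of the lists around pyruvate oxidation (rows), with FLX on the left and SUN on the right and a black line at each list's median. BCKDHA lies at −0.45 in FLX and −0.53 in SUN, and list medians stay between −0.093 and 0.15.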

How the data were processed

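The deposited table held log2 ratios, 1 per probe and array, normalised by the authors. Per the labels, antisense RNA was labelled with Cy3 and Cy5. The log base, the direction of the ratio and the authors' scaling and centring are not given in the sources used here. In all 8 pairs, an array correlated below 0 with its dye exchange (−0.616 to −0.165). SDs over probes ran from 0.233 to 0.435, with 0 missing values. Spot intensities were not analysed here, so no filter on weak probes was possible. Of 43794 probes, 21790 had 1 gene symbol, 0 had several and 22004 had none. Symbols of 1524 probes were updated, none of them a member's, and 21549 probes matched a RefSeq gene list (ARS-UCD2.0) that served for symbols and chromosome membership. No member, probe or promoter sequence was used here.

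Arrays were turned to diet over CAN and averaged with their dye exchange. Gene values were means of all probes of a gene. In limma 3.58.1 under R 4.3.3 (statmod 1.5.0 for random blocks), 1 model was fitted to the 8 replicates (6 residual and 2.32 prior degrees of freedom) and tested on simulated data: with 200 of 43794 probes changed in FLX, it recovered 85.8% of 2-fold and 96.9% of 4-fold changes over 10 draws, with 8.9 false calls per draw, and made 0 calls in SUN, where no change was simulated. The simulated noise was independent between FLX and SUN replicates of one number, unlike the data, and dye orientations were not simulated. No change under 2-fold was simulated, so these rates do not cover the smaller mean ratios of the members. The changed probes were drawn from all probes, most of which varied less than the members. Gene means of the tested members had SDs above those of 54.5% (PDK4) to 99.1% (PDK3) of genes. The rates thus do not apply to variable members such as PDK3 and PDHA1. Tests were two-sided, with Benjamini-Hochberg adjustment over all probes or all genes. P-values measure the spread between pools, which may be partly technical. An exact sign-flip test over 4 replicates cannot go below 0.125 and was not used. Slides 1 and 2 held FLX and slides 3 and 4 SUN, so slide and diet cannot be told apart, and a random slide block was an alternative. FLX and SUN replicates of one number deviated together (r = 0.421, 0.576, 0.537 and 0.410 over probes). The main fit did not pair them, and a block for the replicate number was an alternative. The pairing may come from CAN samples that carry the same number. Other alternatives were single dye orientations, median, scale and quantile normalisation, all 16 arrays with a dye term, each diet alone, robust eBayes, leaving out each replicate, and the median or the most variable probe of a gene.

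Named genes were all members, the 2 genes of smallest p per pathway list and comparison with CAN, and the 5 genes whose mean correlated best with PDHX probe EMBV3_13612. XIST and the Y-linked genes were added after the member values were seen. MDH2 and the single cell type markers, among them NANOG, TKDP1, TFAP2C and POU5F1, were named after their own values were seen. Members and lists were chosen with earlier results of these data known. Summaries were made with pandas 2.3.3 and numpy 2.4.6 in Python 3.11.15, and figures with matplotlib 3.10.9.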

Additional observations from a re-analysis of the deposited data

Results flagged for a closer look

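Of the 48 groups of 4 replicate values of the members that were checked, 1 had a replicate far from the others by Dixon's ratio at the 95% level, where chance flags about 1 in 20. PDK1 probe EMBV3_17526 stood at −0.13 in FLX replicate 3, while the other FLX replicates stood at 0.06, 0.05 and 0.08. The gap took a share of 0.862 of the range. The other 3 PDK1 probes had −0.18, 0.05 and 0.06 in that replicate.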

How the results depend on the processing

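Of 1597 member values recomputed, 674 were the same estimate by construction, since those alternatives change only the error, leave out the other diet or take the probe of a single-probe gene, so they say nothing on stability. Of the other 923, 127 turned their sign and 36 moved by over 1 SD. No sign turn involved a value under an unadjusted p of 0.05. Of the 18 gene means against CAN without PDHX, 10 turned sign under at least 1 alternative: PDHA1 (−0.14 to 0.35), PDHB, DLAT (−0.11 to 0.19), DLD (−0.09 to 0.28), PDK1 and PDK3 (−0.06 to 0.71) in FLX, and PDHB, DLAT (−0.20 to 0.31), DLD (−0.16 to 0.26) and PDK4 in SUN. PDK2 and PDP1 kept their sign in both diets. Most moves of over 1 SD came from a single dye orientation, from leaving out a replicate in FLX against SUN, or from taking a gene's most variable probe, which sets PDHX at 0.50 in FLX and 0.48 in SUN. Reading the ratio as Cy3 over Cy5 turns every sign by construction and was not run.

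Of the 17 member probes, the number at an unadjusted limma p under 0.05 in FLX was 0 as reported and 1 with the diet in Cy5 only, with it in Cy3 only and with all 16 arrays and a dye term, and 0 to 1 when a replicate was left out. In SUN it was 1 as reported, 3 with the diet in Cy3 only, 0 with scale normalisation, 2 with 16 arrays, 2 with slide as a random block, 3 with each diet alone, 2 with a random replicate block, and 0 to 2 when a replicate was left out. It was 0 without SUN replicate 1 or 2, where PDK2 averaged 0.19 and 0.22. In FLX against SUN it was 1 as reported, 0 with the diet in Cy5 only, 2 with the paired replicate block (PDP1 and PDHA1 probe EMBV3_08732), and 0 to 2 when a replicate was left out. It was 0 without FLX replicate 1 or 4, or SUN replicate 1 or 3. The share of all probes that low was computed only for the fits as reported and for the replicate blocks in SUN and in FLX against SUN. A change in the other counts thus cannot be told from a change over the whole array. The PDP1 difference ran from −0.33 to −0.19 over its alternatives.

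At a false discovery rate of 0.05 over all probes, FLX had 0 calls as reported and 1 with the diet in Cy3 only. SUN had 0 as reported, 2 with the diet in Cy3 only, 1 with 16 arrays, and 0 to 2 when a replicate was left out, with 2 without SUN replicate 3. FLX against SUN had 0 calls under every alternative run. The causes were not tested. Small changes cannot be seen at this precision, and signal over background is unknown.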

Other observations

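The 5 genes outside the set whose means followed PDHX probe EMBV3_13612 most closely over the 8 replicates were SEMA5B (Pearson r = 0.958), IRAG1 (0.958), CACNG5 (0.949), SERPIND1 (0.947) and AEBP2 (0.947). These are the best of 15216 genes, over replicates whose CAN samples share numbers, and are a description only. Their own ratios were small next to that probe's: SEMA5B had −0.10 ± 0.44 in FLX and −0.13 ± 0.38 in SUN, and AEBP2 had −0.05 ± 0.30 in FLX and −0.07 ± 0.15 in SUN (SD, n = 4 each).

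The dye orientation left a mark on other members too. PDK1 probe EMBV3_37861 read higher with the diet in Cy5 by 0.56 in FLX and 0.55 in SUN, and 3.78% of all probes in FLX and 4.78% in SUN had as large a difference. Over all probes the median absolute difference between an array and its dye exchange was 0.194 in FLX and 0.252 in SUN.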
